A study of Mus musculus with 22 samples.

Results

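The 32 genes described here make sterols and fatty acids or control their making. They were named by symbol from textbook pathway knowledge, and their probe sets were those whose platform annotation gives that symbol alone. Of the 32, 31 had such a probe set and all 31 were bright enough to be tested, among 9880 tested genes of 18704 genes with a symbol of their own. Acat2, the cytosolic thiolase at the head of the pathway, had none and was not analysed here. Of the 31, 29 lay above their array's median in all 22 arrays; Pmvk did so in 5 and Stard4 in 7, so both are dim.

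Hypothalamus RNA came from lean C57BL/6J males at 8 weeks of age that ate normal chow for 2 weeks and carried no stated genetic change. The mice received intraperitoneal injections of celastrol, a plant triterpenoid, or of its vehicle dimethyl sulfoxide (DMSO, 25 µl per day), over 6 h, 1 day or 4 days. Each DMSO group had 4 arrays, and the celastrol groups 4, 3 and 3 arrays in order of time, each array called a biological replicate. The labels give celastrol as 250 µg/kg beside the 6 h treatment and as a volume of 100 µl beside the later ones, so the later dose stays unknown here, as does the hour of the day at sampling. All values below are log2 intensities, on which a difference of 0.32 is 1.25-fold.

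Cells make cholesterol from acetyl-CoA through mevalonate, isoprenoids, squalene and lanosterol, and fatty acids from acetyl-CoA through malonyl-CoA. When membrane sterol is low, SCAP escorts SREBP proteins to the Golgi, where they are cut and sent to the nucleus to switch on most of these enzymes; INSIG proteins hold SCAP back when sterol is plentiful. The brain makes nearly all of its own cholesterol behind the blood-brain barrier, much of it in oligodendrocytes and astrocytes.

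No sterol or fatty acid gene passed the test in any comparison of celastrol with DMSO. The count was 0 of 31 at 6 h, at 1 day, at 4 days and on the equally weighted average of the 3 times (limma, Benjamini-Hochberg adjusted p under 0.05), where 0%, 0%, 0.0506% and 0.0607% of all 9880 genes passed. At an unadjusted p under 0.05 the counts were 1, 1, 1 and 2 of 31, against 5.11%, 6.66%, 3.66% and 4% of all genes. The median log2 change of the 31 was 0.02 at 6 h, -0.03 at 1 day and -0.04 at 4 days, against 0.02, -0.01 and 0.0083 over all tested genes. Single arrays moved the first 2 medians: the 6 h median was 0.0015 without celastrol replicate 3, 0.00415 without celastrol replicate 4, 0.0141 without DMSO replicate 1, 0.0433 without celastrol replicate 1 and 0.0448 without DMSO replicate 3. The 1 day median was -0.0071 without DMSO replicate 1 and -0.0182 without DMSO replicate 4. Quantile normalization again gave 0.0023 and -0.0025. Changes were bounded closely: the 95% interval lay within 1.25-fold in either direction for 30 of 31 genes at 6 h, all 31 at 1 day and 30 of 31 at 4 days, and within 1.5-fold for all 31 each time. Idh1 was the exception at 6 h and at 4 days.

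**Figure D1:**
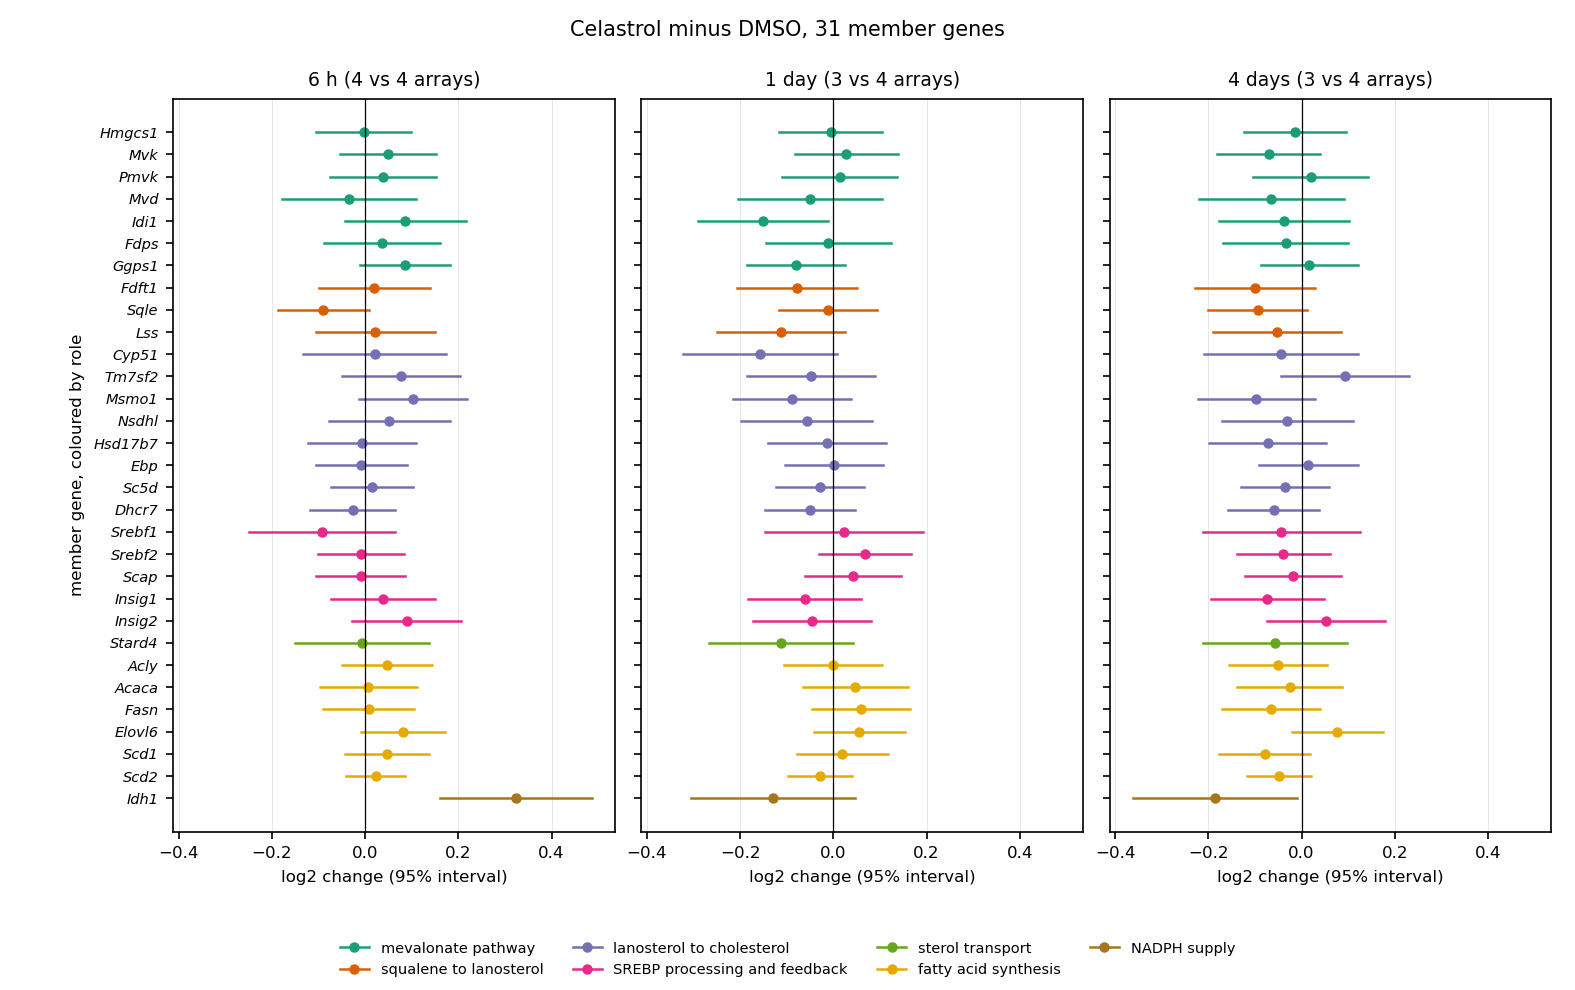
Log2 change, celastrol minus DMSO, of the 31 genes at 6 h, 1 day and 4 days (x axis), with 95% intervals from limma and colours for the step of the pathway. Most intervals cross 0; Idh1 at 6 h is farthest from 0, at 0.32.

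The direction of these small differences was uneven. At 6 h, 21 of the 31 genes were higher with celastrol and 10 lower, beside 65.4% of all genes higher. The 6 h count lower ran from 6 to 14 when any 1 array was left out; it was 6 without DMSO replicate 3, celastrol replicate 1 or celastrol replicate 2, and 14 without celastrol replicate 3. At 1 day 10 were higher and 21 lower, beside 41.2% of all genes higher, and the count lower was 19 to 23 with 1 array left out. At 4 days 6 were higher and 25 lower, beside 56.4% of all genes higher, and the count lower was 24 to 27 when any 1 array was left out and 24 to 28 in the other settings. Quantile normalization again turned the 6 h split to 16 higher, with 50.3% of all genes higher, and median centring turned the 1 day split to 15 higher, with 49.8% of all genes higher, and the 4 day split to 3 higher, with 39.5%. The 31 genes were read on the same few arrays and are not independent, so these counts carry no p-value. Single genes were less steady: with each array left out in turn, the sign of the change held for 15, 19 and 25 of the 31 genes in order of time.

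The 4 day celastrol arrays were the lowest of the 6 groups, by group mean, for 16 of the 31 genes and for 11 of the 18 sterol enzymes, while that group was lowest for 13% of all tested genes. It was highest for 1 of the 31, Elovl6, against 28% of all genes. DMSO at 1 day was the highest group for 11 of the 31, against 20.2% of all genes.

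Promoters of these genes are known for sterol regulatory elements, where SREBP binds, beside CCAAT and GC boxes, where its partners NF-Y and Sp1 bind. The RefSeq promoter table (GRCm38.p6) held windows for 26 of the 32 genes, 35 windows in all; those of Fdps, Fdft1, Sqle, Stard4, Scd1 and Scd2 were not listed. In the 250 bases before each start, on both strands, the element's core TCACNCCA stood in 8.57% of the windows (3 of 26 genes), against 3.67% of all windows in the table. The CCAAT box CCAAT stood in 62.9% (21 genes) against 33.9%, the GC box GGGCGG in 71.4% (21 genes) against 32.7%, and the E-box CACGTG in 14.3% (Dhcr7, Hsd17b7, Insig1, Sc5d and Scap) against 6.02%. Over windows of genes tested here the 4 shares were 3.19%, 34.1%, 58.4% and 8.38%. The core and the CCAAT box can share the letters CCA where they adjoin. Below are the windows of the 3 genes that hold the core, which differ in their values here, and that of Idh1, whose values varied most; Hmgcs1 is chr13:119690101-119690350 (plus strand), Msmo1 chr8:64733579-64733828 (minus), Srebf2 chr15:82147019-82147268 (plus) and Idh1 chr1:65186480-65186729 (minus). Capitals mark matches to the core, the CCAAT box or the GC box, in either orientation.
Hmgcs1: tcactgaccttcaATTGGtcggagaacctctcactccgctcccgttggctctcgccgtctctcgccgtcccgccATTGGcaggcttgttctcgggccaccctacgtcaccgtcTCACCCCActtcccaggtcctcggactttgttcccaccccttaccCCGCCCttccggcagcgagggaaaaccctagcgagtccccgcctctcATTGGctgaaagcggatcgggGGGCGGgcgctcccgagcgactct
Msmo1: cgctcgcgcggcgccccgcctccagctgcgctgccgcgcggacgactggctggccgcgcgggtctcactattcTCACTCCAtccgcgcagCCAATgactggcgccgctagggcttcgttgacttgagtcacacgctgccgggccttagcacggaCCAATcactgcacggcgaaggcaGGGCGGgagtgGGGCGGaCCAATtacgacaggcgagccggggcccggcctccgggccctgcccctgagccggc
Srebf2: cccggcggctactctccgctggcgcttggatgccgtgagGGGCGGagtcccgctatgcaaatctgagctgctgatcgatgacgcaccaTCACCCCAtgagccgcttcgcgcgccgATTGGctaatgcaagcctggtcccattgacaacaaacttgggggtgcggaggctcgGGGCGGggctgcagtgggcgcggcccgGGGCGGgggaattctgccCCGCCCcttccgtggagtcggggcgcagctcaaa
Idh1: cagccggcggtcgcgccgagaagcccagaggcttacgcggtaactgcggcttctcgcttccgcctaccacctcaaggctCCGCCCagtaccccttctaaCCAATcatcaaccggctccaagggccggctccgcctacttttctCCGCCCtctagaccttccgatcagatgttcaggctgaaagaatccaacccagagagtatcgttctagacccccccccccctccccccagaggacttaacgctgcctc
The core starts 137 bases before the start site in Hmgcs1, 177 in Msmo1 and 162 in Srebf2, and this Idh1 window holds none. A match is a run of letters, not a measured site of binding.

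The mevalonate steps came first in the pathway and stayed close to their DMSO levels. Of the 7 enzymes measured, 5 were higher at 6 h and 2 at each later time (4 at 1 day and 0 at 4 days with median centring), with log2 changes from -0.15 to 0.09 over the 3 times. Hmgcs1, which joins acetyl-CoA to acetoacetyl-CoA, had the smallest difference of the 7 at each time. Its group means were 11.37 in DMSO and 11.36 with celastrol at 6 h, 11.45 and 11.44 at 1 day, and 11.38 and 11.36 at 4 days, with SD up to 0.09. Those means differ by far less than the spread between arrays.

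Idi1, the isomerase that makes dimethylallyl diphosphate, had the lowest unadjusted p of any of the 31 at 1 day. Its DMSO arrays read 9.58, 9.50, 9.55 and 9.53 and its celastrol arrays 9.54, 9.14 and 9.49. The groups overlapped, and replicate 2 stood far below all others. The log2 change was -0.15 (SE 0.07, 95% interval -0.29 to -0.01, adjusted p = 0.720 by limma, exact permutation p = 0.0857), and without celastrol replicate 2 it was -0.03. A dimmer probe set of Idi1 gave -0.16, with the same replicate 2 low. Its DMSO arrays read 9.55, 9.52, 9.64 and 9.46 and its celastrol arrays 9.51, 9.12 and 9.50. At 6 h Idi1 differed by 0.09 and at 4 days by -0.04.

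Ggps1, which makes the geranylgeranyl diphosphate used to anchor proteins in membranes, read 10.71, 10.71, 10.67 and 10.69 in DMSO and 10.75, 10.71, 10.81 and 10.87 with celastrol at 6 h. The groups met at 10.71, and the log2 change of 0.09 (SE 0.05) did not pass (limma adjusted p = 0.895). It differed by -0.08 at 1 day, or -0.03 without DMSO replicate 1, and by 0.02 at 4 days, where the sign turned without some arrays. Mvk and Pmvk, the kinases that phosphorylate mevalonate and its phosphate, differed by -0.07 to 0.05 at the 3 times. Mvd, the decarboxylase, differed by -0.03 at 6 h, -0.05 at 1 day and -0.06 at 4 days, and Fdps, farnesyl diphosphate synthase, by 0.04, -0.01 and -0.03.

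The squalene steps commit the pathway to sterols, and all 3 enzymes were lower at 4 days without passing the test; at 1 day all 3 were lower too, but Sqle changed sign with both rescalings (0.0019 with median centring, 0.0050 with quantile normalization again). Sqle, squalene epoxidase, a rate-limiting oxygen-using step, had 9 of 10 celastrol arrays below the DMSO mean of their time. At 6 h its DMSO arrays read 10.35, 10.60, 10.41 and 10.39 and its celastrol arrays 10.29, 10.35, 10.33 and 10.40. At 1 day the values were 10.38, 10.24, 10.33 and 10.34 against 10.30, 10.34 and 10.29. At 4 days they were 10.32, 10.33, 10.36 and 10.26 against 10.26, 10.17 and 10.24. The groups overlapped each time, and DMSO replicate 2 at 6 h was the highest of all 22 arrays. The log2 changes were -0.09, -0.01 and -0.09, the first of which was -0.04 without that array. Their average was -0.07 (SE 0.03, 95% interval -0.12 to -0.01), which did not pass over all genes (limma adjusted p = 1.00, unadjusted p = 0.0329, exact permutation within times p = 0.0179).

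Fdft1, squalene synthase, was among the 4 genes whose 3 celastrol arrays at 4 days all lay below the 4 DMSO arrays. Its DMSO arrays read 12.19, 12.35, 12.18 and 12.17 and its celastrol arrays 12.16, 12.12 and 12.09. The groups were separated narrowly. The log2 change was -0.10 (SE 0.06, limma adjusted p = 1.00, exact permutation p = 0.0571), and a dimmer probe set gave -0.08. Without DMSO replicate 2, the highest, it was -0.06. At 6 h and 1 day it differed by 0.02 and -0.08. In the dimmer probe set the 4 day groups overlapped. There the DMSO arrays read 12.01, 12.22, 12.07 and 11.97 and the celastrol arrays 12.07, 11.95 and 11.92.

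Lss, lanosterol synthase, was the only one of the 31 genes whose celastrol arrays at 1 day all lay below DMSO, a pattern seen in 4.36% of all genes, while 0 of 31 had all celastrol arrays above, seen in 1.81%. Its DMSO arrays read 9.57, 9.61, 9.57 and 9.65 and its celastrol arrays 9.53, 9.42 and 9.51. The log2 change was -0.11 (SE 0.07, limma adjusted p = 0.751, exact permutation p = 0.0286, the smallest 3 against 4 arrays can give). It differed by 0.02 at 6 h and -0.05 at 4 days.

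The last steps turn lanosterol into cholesterol, by demethylation, reduction and isomerization. Of the 8 enzymes measured 5 were higher at 6 h (3 with quantile normalization again), 1 at 1 day and 2 at 4 days. Msmo1, the sterol C4-methyl oxidase, had one of the widest swings: its group means spanned 0.28, more than 96.6% of all tested genes. At 6 h its DMSO arrays read 11.10, 11.17, 11.12 and 11.06 and its celastrol arrays 11.08, 11.15, 11.35 and 11.28. At 4 days they read 11.08, 11.04, 11.04 and 10.98 against 10.97, 10.93 and 10.91. Celastrol replicates 3 and 4 stood high at 6 h, and at 4 days every celastrol array lay below every DMSO array. The log2 changes were 0.10 (SE 0.06) at 6 h, -0.09 (SE 0.06) at 1 day and -0.10 (SE 0.06) at 4 days, with limma adjusted p from 0.773 to 1.00. Without celastrol replicate 3 the 6 h value was 0.06, and without celastrol replicate 2 the 1 day value was -0.04.

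Cyp51, the lanosterol demethylase, read 9.85, 10.04, 9.97 and 9.94 in DMSO and 9.89, 9.74 and 9.75 with celastrol at 1 day. Celastrol replicates 2 and 3 lay below all DMSO arrays and replicate 1 among them. The log2 change was -0.16 (SE 0.08, 95% interval -0.32 to 0.01, limma adjusted p = 0.720, exact permutation p = 0.0857), beside 0.02 at 6 h and -0.04 at 4 days. Its 6 h DMSO arrays ran from 9.64 to 10.17, the widest DMSO group of any sterol enzyme.

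Tm7sf2, a sterol C14-reductase, differed the other way at 4 days. Its DMSO arrays read 9.22, 9.03, 9.03 and 9.05 and its celastrol arrays 9.24, 9.08 and 9.21. DMSO replicate 1 alone stood with the celastrol arrays, and the log2 change was 0.09 (SE 0.07, limma adjusted p = 1.00), after 0.08 at 6 h and -0.05 at 1 day. Dhcr7, the reductase of the last step from 7-dehydrocholesterol, differed by -0.03, -0.05 and -0.06, with 8 of 10 celastrol arrays below their DMSO mean and an average of -0.05 (SE 0.03, limma adjusted p = 1.00). Nsdhl, Hsd17b7, Ebp and Sc5d, a dehydrogenase, a ketoreductase, an isomerase and a desaturase, differed by -0.07 to 0.05 at the 3 times.

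**Figure D2:**
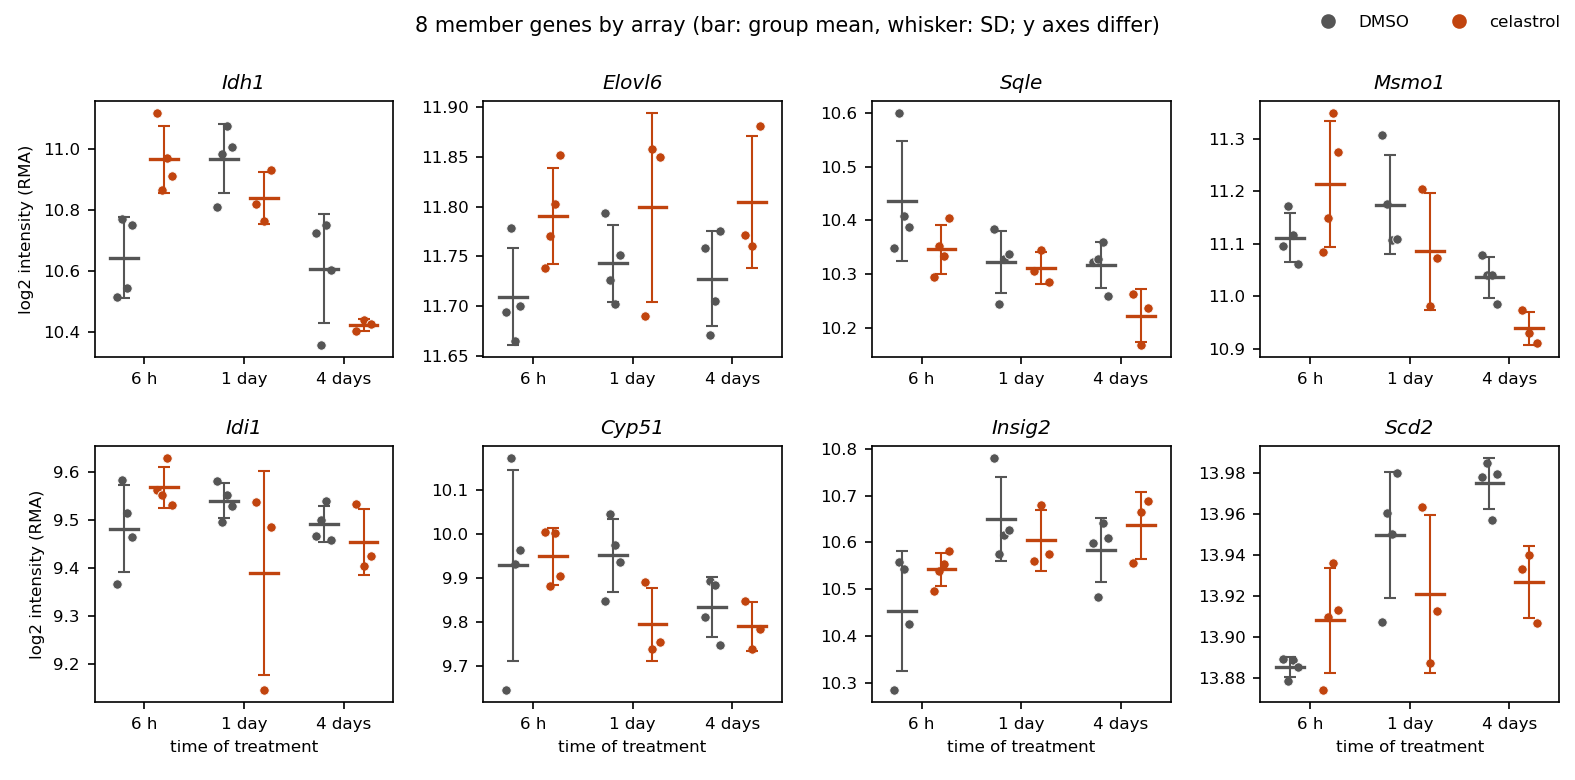
Log2 intensity of 8 genes (y axes differ) in each of the 22 arrays by time (x axis), DMSO in grey and celastrol in orange, with a bar at the group mean and a whisker of 1 SD. Idh1 has separate groups at 6 h, from 10.51 to 10.77 in DMSO and from 10.86 to 11.12 with celastrol, and Idi1 has 1 low celastrol array at 1 day, at 9.14.

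The 5 regulators of SREBP showed no shared direction: 2 were higher at 6 h, 3 at 1 day and 1 at 4 days, and 0 passed. Srebf1, whose protein favours fatty acid genes, had wide groups. It read 9.74, 9.77, 10.03 and 9.96 in DMSO and 9.93, 9.59, 9.84 and 9.78 with celastrol at 6 h, a log2 change of -0.09 (SE 0.08, limma adjusted p = 0.920), or -0.03 without celastrol replicate 2. The groups overlapped over most of their range. Srebf2, whose protein favours sterol genes, read 11.18, 11.39, 11.36 and 11.33 in DMSO and 11.33, 11.43 and 11.39 with celastrol at 1 day. Only DMSO replicate 1 stood apart, and the log2 change was 0.07 (SE 0.05, limma adjusted p = 0.782). That value became -0.00047 when DMSO replicate 1 and celastrol replicate 2, the arrays least like their groups at 1 day, were left out together, a choice made after seeing the data. Scap differed by -0.01, 0.04 and -0.02 at the 3 times.

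Insig1, itself a target of SREBP and so a common readout of its activity, had every celastrol array below every DMSO array at 4 days. The DMSO arrays read 11.10, 11.07, 11.07 and 11.08 and the celastrol arrays 10.97, 11.001 and 11.05. The log2 change was -0.07 (SE 0.06, limma adjusted p = 1.00, exact permutation p = 0.0286), and the DMSO group was the tightest of its 6 groups. At 6 h Insig1 differed by 0.04 and at 1 day by -0.06. Insig2, the isoform that fasting and hormones regulate in liver, read 10.60, 10.48, 10.64 and 10.61 in DMSO and 10.56, 10.66 and 10.69 with celastrol at 4 days, a log2 change of 0.05 (SE 0.06, limma adjusted p = 1.00). Those groups overlapped.

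Stard4, a carrier of cholesterol between membranes, differed by -0.01, -0.11 and -0.06. Its 1 day value was -0.04 without DMSO replicate 1, and its 4 day value was -0.0064 without celastrol replicate 1. Of its 10 celastrol arrays, 8 lay below the DMSO mean of their time. The average was -0.06 (SE 0.04, limma adjusted p = 1.00), or -0.03 without DMSO replicate 1 at 1 day.

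All 6 fatty acid synthesis genes were higher with celastrol at 6 h (4 with median centring or quantile normalization again, where Acaca and Fasn changed sign), 4 at 1 day and 1 at 4 days, and 0 of them passed. Elovl6, which lengthens palmitate to stearate, was higher at all 3 times. At 6 h its DMSO arrays read 11.69, 11.78, 11.66 and 11.70 and its celastrol arrays 11.74, 11.77, 11.80 and 11.85. At 1 day they read 11.79, 11.73, 11.70 and 11.75 against 11.69, 11.86 and 11.85. At 4 days they read 11.76, 11.67, 11.71 and 11.78 against 11.77, 11.76 and 11.88. The groups overlapped each time, but 9 of 10 celastrol arrays were above the mean of the matching DMSO arrays. The log2 changes were 0.08, 0.06 and 0.08, with an average of 0.07 (SE 0.03, 95% interval 0.02 to 0.13), which did not pass over all genes (limma adjusted p = 1.00, unadjusted p = 0.0133, exact permutation within times p = 0.00843).

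Scd2, the main desaturase of brain, was the steadiest of the 31 genes: its residual SD within groups was 0.02, and 0.0506% of tested genes had a smaller one, at a mean level of 13.93. At 4 days its DMSO arrays read 13.98, 13.98, 13.96 and 13.98 and its celastrol arrays 13.93, 13.94 and 13.91, with no overlap. The difference was very small, -0.05 (SE 0.03, limma adjusted p = 1.00, exact permutation p = 0.0286). Scd1, its close relative, read 13.14, 13.13, 13.07 and 13.03 against 13.05, 12.98 and 13.01 at 4 days. Those groups overlapped, and the log2 change was -0.08 (SE 0.05, limma adjusted p = 1.00). The Scd genes are similar in sequence, and how far their probe sets cross-hybridize was not tested. With Fdft1, Msmo1 and Insig1, Scd2 made up the 4 of 31 genes with all celastrol arrays below DMSO at 4 days. That pattern was seen in 2.05% of all genes. Of the 31, 0 had all above, seen in 4.27%. For Fdft1 the pattern held in the probe set kept but not in its dimmer one.

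Fasn, fatty acid synthase, read 11.96, 11.90, 12.0002 and 11.93 in DMSO and 11.91, 11.88 and 11.86 with celastrol at 4 days. The groups overlapped narrowly, and the log2 change was -0.06, after 0.01 at 6 h and 0.06 at 1 day. The 1 day value became -0.00020 without the 2 least typical arrays. Acaca, the carboxylase that makes malonyl-CoA, differed by 0.01, 0.05 and -0.03, and its dimmer probe set by -0.01, 0.04 and -0.00093. Acly, which makes cytosolic acetyl-CoA from citrate, differed by 0.05, -0.0013 and -0.05.

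Idh1, the cytosolic isocitrate dehydrogenase that supplies NADPH for reductive synthesis, was the most variable of the 31 genes. Its group means spanned 0.55, a span above that of 99.7% of tested genes, with a residual SD of 0.12. At 6 h the DMSO arrays read 10.51, 10.77, 10.54 and 10.75 and the celastrol arrays 11.12, 10.86, 10.97 and 10.91. Every celastrol array lay above every DMSO array, the only case among the 31 at 6 h, where 2.26% of all genes show it; 0 of 31 showed the reverse, seen in 0.506%. The log2 change of 0.32, or 1.25-fold (SE 0.08, 95% interval 0.16 to 0.49), had an unadjusted p of 4.68e-04 and an adjusted p of 0.895 (limma), with an exact permutation p = 0.0286, the smallest 4 against 4 arrays can give. It was 0.27 to 0.36 when any 1 array was left out.

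The later times went the other way. At 1 day Idh1 read 10.81, 10.98, 11.07 and 11.01 in DMSO and 10.82, 10.76 and 10.93 with celastrol, a log2 change of -0.13 (SE 0.08, limma adjusted p = 0.769). At 4 days it read 10.72, 10.35, 10.75 and 10.60 against 10.40, 10.44 and 10.42, a log2 change of -0.19 (SE 0.08, 95% interval -0.36 to -0.01, limma adjusted p = 1.00, exact permutation p = 0.171). DMSO replicate 2 at 4 days was the lowest of all 22 arrays, and the 3 celastrol arrays stood close together between it and the rest. Averaged over the times the change was 0.0025 (SE 0.05), and both rescalings turned its sign.

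Differences between times in the celastrol change were tested directly. Of the 31 genes 0 passed for 1 day minus 6 h, 4 days minus 6 h or 4 days minus 1 day (limma adjusted p under 0.05), as did 0%, 0% and 0% of all genes. At an unadjusted p under 0.05 there were 4 of 31 for 1 day minus 6 h, 2 for 4 days minus 6 h and 0 for 4 days minus 1 day, against 8.27%, 3.38% and 6% of all genes. Idh1 had the largest such differences, -0.45 (SE 0.12, limma adjusted p = 0.581) for 1 day minus 6 h and -0.51 (SE 0.12, limma adjusted p = 0.474) for 4 days minus 6 h; these share the 6 h arrays. For 1 day minus 6 h, Idi1 gave -0.24, Msmo1 -0.19 and Ggps1 -0.17, while Srebf1 gave 0.12, Sqle and Srebf2 0.08 and Scap 0.05. For 4 days minus 6 h, Msmo1 gave -0.20, Scd1 -0.13 and Mvk -0.12, and the 3 genes with positive values, Srebf1, Ebp and Tm7sf2, gave 0.05 or less. For 4 days minus 1 day, Fasn gave -0.12, Srebf2 -0.11, Scd1 and Mvk -0.10, and Tm7sf2 0.14, Idi1 0.11, Ggps1 and Insig2 0.10. The Idi1 value turned to -0.0091 without celastrol replicate 2 at 1 day and to -0.0232 without the 2 least typical arrays. Ggps1 was at 0.04 and Insig2 at 0.06 without DMSO replicate 1 at 1 day. With each array left out in turn, signs held for 20, 17 and 15 of the 31 genes in the 3 differences.

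The DMSO arrays were compared between times to give the background without celastrol. Of the 31 genes 0 passed between any 2 DMSO times, where 0% (1 day minus 6 h), 0.253% (4 days minus 6 h) and 0.152% (4 days minus 1 day) of all genes passed. At an unadjusted p under 0.05 there were 6, 6 and 5 of 31, against 14.1%, 15.3% and 14.7% of all genes. The DMSO groups of different times differ in the length of treatment. Any other difference in handling between them, such as the number of injections, cannot be told apart from time.

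Some genes had DMSO groups that did not overlap between times. At 1 day 4 of 31 had every array above those at 6 h (Ggps1, Insig2, Scd2 and Idh1), as did 4.99% of all genes, and 0 had every array below, against 0.992%. At 4 days 2 lay above 6 h (Fasn and Scd2), against 5.51%, and 0 below, against 2.05%. At 4 days 1 lay above 1 day (Fasn), against 4.73%, and 3 below (Ggps1, Msmo1 and Idh1), against 5.07%.

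**Figure D3:**
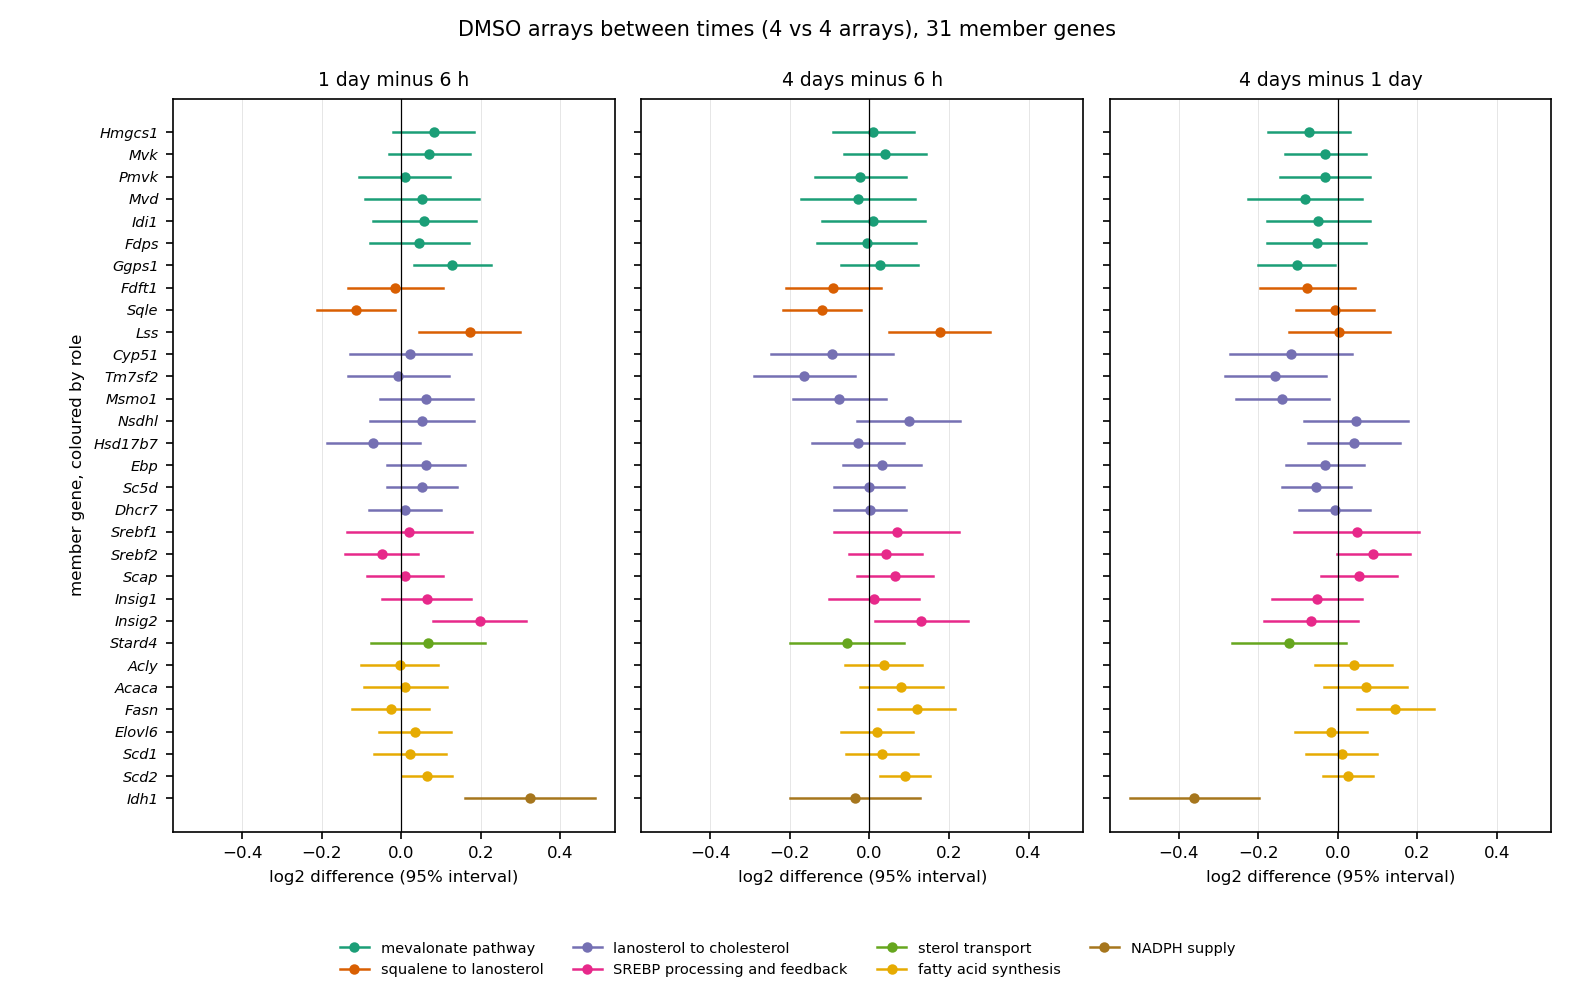
Log2 difference between times within the DMSO arrays for the 31 genes (x axis), with 95% intervals from limma, 4 arrays against 4. Idh1 is farthest from 0, at 0.32 for 1 day minus 6 h and -0.36 for 4 days minus 1 day, and lies near 0 for 4 days minus 6 h.

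Idh1 led here too, with its 4 DMSO arrays at 1 day all above those at 6 h and at 4 days. It was higher at 1 day than at 6 h by 0.32 (SE 0.08, unadjusted p = 4.48e-04, limma adjusted p = 0.0985, exact permutation p = 0.0286). From 1 day to 4 days the difference was -0.36 (SE 0.08, unadjusted p = 1.46e-04, limma adjusted p = 0.0561, exact permutation p = 0.0286). The latter passed in 7 of the 12 other settings, with adjusted p as low as 0.00608 with array weights, and in 1 of 22 with an array left out. The celastrol change at 6 h and the DMSO difference between 1 day and 6 h share the 6 h DMSO arrays, whose Idh1 mean of 10.64 lies close to the DMSO mean of 10.61 at 4 days and below that of 10.97 at 1 day; celastrol at 6 h had a mean of 10.97.

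Insig2 read 10.28, 10.56, 10.54 and 10.43 in DMSO at 6 h and 10.78, 10.58, 10.62 and 10.63 at 1 day. The groups did not overlap, and the difference was 0.20 (SE 0.06, limma adjusted p = 0.146). Lss read 9.40, 9.39, 9.60 and 9.32 at 6 h, below its 1 day and 4 day DMSO arrays but for replicate 3, with differences of 0.17 (limma adjusted p = 0.226) and 0.18 (limma adjusted p = 0.210). Sqle was lower than at 6 h by 0.11 at 1 day and 0.12 at 4 days.

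Fasn in DMSO was higher at 4 days than at 6 h by 0.12 (limma adjusted p = 0.25) and than at 1 day by 0.14 (limma adjusted p = 0.176), with all 4 arrays at 4 days above all earlier DMSO arrays. Scd2 was higher at 4 days than at 6 h by 0.09 (SE 0.03, limma adjusted p = 0.196), its 6 h arrays all lying at 13.88 to 13.89. Tm7sf2 was lower at 4 days by 0.16 against either earlier time, and Msmo1 and Ggps1 were lower at 4 days than at 1 day by 0.14 and 0.10.

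Averaged over the genes of a step, each array could be set against the mean of all 22 arrays. The 18 sterol enzymes lay at -0.00026 ± 0.04 (SD, n = 4) in DMSO and 0.02 ± 0.06 (n = 4) with celastrol at 6 h. At 1 day they lay at 0.04 ± 0.03 (n = 4) and -0.01 ± 0.01 (n = 3), and at 4 days at -0.01 ± 0.03 (n = 4) and -0.05 ± 0.03 (n = 3). The 1 day groups did not overlap, DMSO running from 0.0066 to 0.06 and celastrol from -0.02 to -0.0011. All 9880 tested genes lay at -0.02 in DMSO and 0.00091 with celastrol at 6 h, 0.0074 and -0.0088 at 1 day, and 0.0051 and 0.02 at 4 days, so at 6 h the shift of the sterol enzymes was close to that of all genes. At 1 day the all-gene arrays overlapped, from -0.00056 to 0.01 in DMSO and from -0.03 to 0.0096 with celastrol. At 6 h celastrol replicates 3 and 4 stood apart from 1 and 2, each with 16 of 18 enzymes above the group mean, while 66.1% and 54% of all genes were above it in those arrays.

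**Figure D4:**
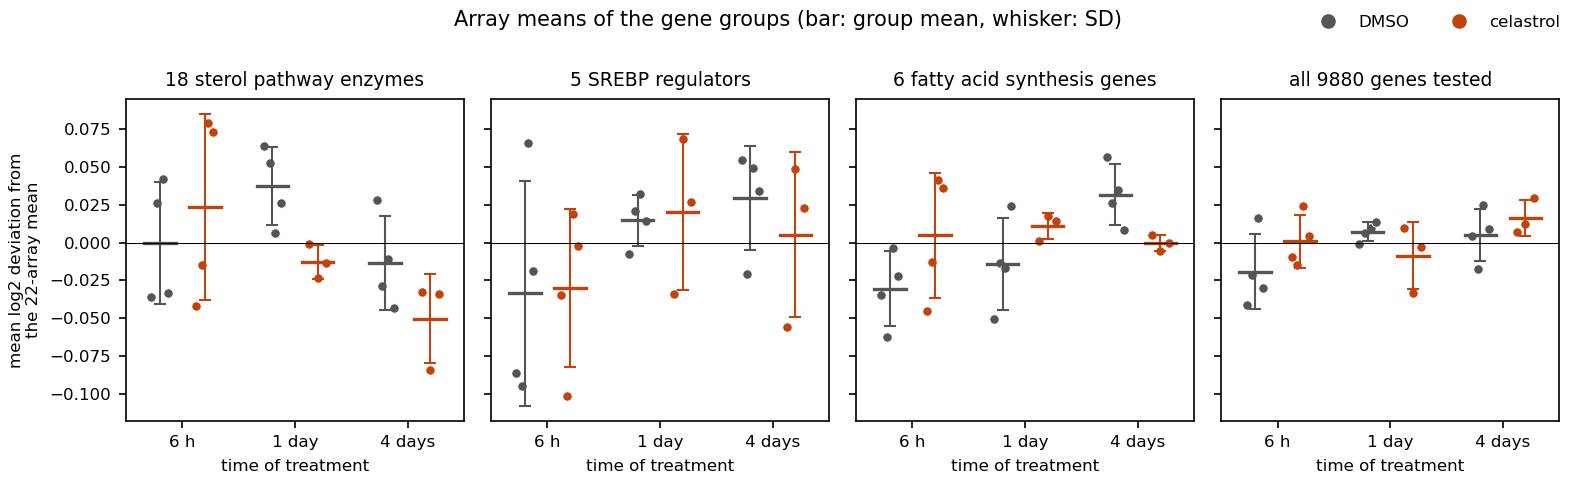
Mean log2 deviation from the 22-array mean (y axis) by time (x axis) for 18 sterol enzymes, 5 SREBP regulators, 6 fatty acid genes and all 9880 tested genes, 1 point per array, with group mean and SD. The sterol enzymes split the 6 h celastrol arrays into a pair near 0.08 and 0.07 and a pair below 0.

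The 6 fatty acid genes lay at -0.03 ± 0.02 and 0.0049 ± 0.04 at 6 h, -0.01 ± 0.03 and 0.01 ± 0.01 at 1 day, and 0.03 ± 0.02 and -0.00019 ± 0.01 at 4 days, DMSO before celastrol. At 4 days the DMSO arrays all lay above the celastrol arrays. The 5 regulators overlapped at all times, at -0.03 in both groups at 6 h, 0.01 and 0.02 at 1 day, and 0.03 and 0.01 at 4 days.

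Since much brain sterol synthesis lies in glia, marker levels stand beside these means; in bulk tissue, fewer cells of a type and less RNA per cell cannot be told apart. The 11 oligodendrocyte markers lay at -0.05 in DMSO and -0.06 with celastrol at 6 h, 0.03 and 0.02 at 1 day, and 0.05 and 0.02 at 4 days; their array means ran from 11.10 to 11.18 and from 11.06 to 11.16 at 6 h, from 11.17 to 11.27 and from 11.19 to 11.21 at 1 day, and from 11.19 to 11.27 and from 11.17 to 11.23 at 4 days. The 10 astrocyte markers lay at -0.03 and 0.05 at 6 h, 0.01 and 0.05 at 1 day, and -0.03 and -0.05 at 4 days. Their array means ran from 11.04 to 11.13 and from 11.11 to 11.26 at 6 h. At 1 day they ran from 11.0991 to 11.1339 in DMSO and from 11.1342 to 11.1707 with celastrol, narrowly without overlap. At 4 days they ran from 10.99 to 11.14 and from 11.03 to 11.08. The 6 tested of 8 endothelial markers lay at -0.02 in DMSO and -0.01 with celastrol at 6 h. They lay at 0.02 and -0.07 at 1 day, and at 0.03 and 0.06 at 4 days. They were lower with celastrol at 1 day, as the sterol enzymes and the microglia markers below were, and higher at 4 days. Their DMSO and celastrol arrays overlapped at each time. The 5 tested of 8 tanycyte and ependymal markers lay at 0.01 and -0.01, -0.02 and 0.06, and -0.04 and 0.02 at the 3 times. The 4 tested of 8 microglia markers lay at -0.02 and -0.03, 0.02 and -0.04, and -0.02 and 0.10. At 4 days their array means did not overlap, from 9.362 to 9.494 in DMSO and from 9.498 to 9.553 with celastrol. The 8 neuron markers lay between -0.03 and 0.02 in all 6 groups, and the 6 oligodendrocyte precursor markers between -0.02 and 0.0069. Of 8 pituitary markers 3 were tested, which ranged over arrays from -1.05 to 2.26, and of 8 choroid plexus markers 1 was tested, with group means from -0.04 to 0.05. The pituitary group means were 0.70 in DMSO and -0.28 with celastrol at 6 h, 0.07 and -0.17 at 1 day, and -0.39 and 0.03 at 4 days. Of 12 hypothalamic markers 10 were tested, with array means from 10.70 to 11.06. They lay at 0.0067 in DMSO and -0.08 with celastrol at 6 h, 0.07 and 0.04 at 1 day, and -0.03 and -0.0028 at 4 days. For both lists the arrays of the DMSO and celastrol groups overlapped at each time. The part of these cell types in the results was not tested.

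Other genes of these pathways came from fixed lists, and none passed with celastrol. Of 11 tested genes of the wider sterol and isoprenoid pathway, 0 passed with celastrol. Higher with celastrol were 11 at 6 h, 1 at 1 day and 7 at 4 days. These counts were 8, 3 and 6 with quantile normalization again and 10, 3 and 6 with median centring. Cyb5b, a cytochrome b5 that carries electrons, had the lowest p at 6 h, with a log2 change of 0.14 (limma adjusted p = 0.895), and Erg28, an endoplasmic reticulum scaffold of C4-demethylation, at 1 day, with -0.10 (limma adjusted p = 0.713). In DMSO, Pdss2, a subunit of the enzyme that makes the coenzyme Q side chain, rose from 6 h to 4 days by 0.27 (SE 0.05, limma adjusted p = 0.0335), the only gene of these lists to pass in any comparison. Tmem97, the sigma-2 receptor and a sterol-responsive gene, was higher in DMSO at 1 day than at 6 h by 0.25 (limma adjusted p = 0.0985).

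Of 19 tested genes for making, lengthening or desaturating other fatty acids, 0 passed with celastrol, and 13, 4 and 9 were higher at 6 h, 1 day and 4 days (9, 7 and 7 with quantile normalization again). Elovl2, an elongase of very long polyunsaturated fatty acids, differed by 0.15 at 6 h (limma adjusted p = 0.895) and -0.13 at 1 day (limma adjusted p = 0.720). Of 16 tested genes of cholesterol efflux and turnover, 0 passed. Lipa, the lysosomal acid lipase that frees cholesterol from its esters, had the largest average, 0.14 (SE 0.04, limma adjusted p = 0.513), with 0.17 at 6 h and at 4 days. Mylip, which marks lipoprotein receptors for degradation, differed by -0.19 at 1 day (limma adjusted p = 0.698). Of 7 other NADPH enzymes tested beside Idh1, 0 passed, and the mitochondrial Idh2 differed by 0.09 at 4 days (limma adjusted p = 1.00).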

How the data were processed

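RNA of 22 mouse hypothalami was measured on Affymetrix whole-transcript arrays after Trizol extraction, column cleaning and biotin labelling, per the labels' protocols. The deposited values are log2 intensities made by the authors with RMA, per the submitters' processing notes, with no version given in the sources used here; as a method, RMA subtracts background, quantile-normalizes the arrays and combines the probes of a set. They covered 23492 probe sets, of which 20228 had 1 platform symbol, 1399 several and 1865 none. Of those with 1 symbol, 20182 were matched to RefSeq by gene identifier and took the symbol given there. For 809 genes with several probe sets the brightest was kept. Array medians lay between 8.58 and 8.66, and 0 pairs of arrays were all but identical. Arrays have no read depth, so their number limits the precision, and limma p-values set each difference against the spread between these samples.

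Tests covered the 9880 genes that exceeded the array median in 3 arrays or more, leaving out 8824. limma 3.58.1 in R 4.3.3 fitted 6 group means to all arrays, with empirical Bayes, two-sided tests and Benjamini-Hochberg adjustment over all 9880 genes. Exact permutation tests were two-sided. They permuted celastrol and DMSO labels within a time, or time labels between the 2 DMSO groups compared. The steps were tested on simulated data. The genes and lists were chosen with earlier results of these data known. In each comparison the rule named up to 4 genes higher and 4 lower by smallest p, and up to 2 genes of each other list; genes with no overlap between groups, and values elsewhere, were named after they were seen. Alternatives were no filter, a stricter filter (11 arrays), the mean of probe sets, limma-trend, median centring, robust eBayes, quantile normalization again, array weights (the estimate stopped before its tolerance), only the groups compared, a replicate block, the leading residual component, each array left out, and, added after seeing the data, the 2 least typical arrays left out. Figures used matplotlib 3.10.9.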

Additional observations from a re-analysis of the deposited data

Results flagged for a closer look

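In 8 of 124 groups of 4 arrays, 1 array stood apart from the others of its group by Dixon's criterion, which flags about 1 in 20 groups by chance. Pmvk was high in DMSO 6 h replicate 3 (8.657, the others 8.507 to 8.512) and in DMSO 4 days replicate 1 (8.647, the others 8.469 to 8.496). Mvd was low in DMSO 1 day replicate 3 (8.765, the others 9.028 to 9.074), and Ggps1 was high in DMSO 1 day replicate 1 (10.98, the others 10.75 to 10.79). Fdft1 was high in DMSO 4 days replicate 2 (12.35, the others 12.17 to 12.19), and Tm7sf2 in DMSO 4 days replicate 1 (9.22, the others 9.033 to 9.048). Dhcr7 was low in DMSO 6 h replicate 2 (9.986, the others 10.11 to 10.13), and Insig1 was high in DMSO 4 days replicate 1 (11.1, the others 11.07 to 11.08).

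In 8 of 93 gene and time pairs, all celastrol arrays lay on one side of the DMSO mean at one time and all on the other side at another. The share of all tested genes that did so was not counted, so the 8 have no background to be read against. The difference between the times was tested for each pair and did not pass (limma, Benjamini-Hochberg). For 1 day minus 6 h it was -0.453 for Idh1, -0.237 for Idi1 and -0.165 for Ggps1, each with an adjusted p of 0.581. For 4 days minus 6 h it was -0.508 for Idh1 (adjusted p = 0.474) and -0.119 for Mvk (0.997). For 4 days minus 1 day it was -0.124 for Fasn (0.826), -0.107 for Srebf2 (0.836) and -0.0724 for Acaca (0.889).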

How the results depend on the processing

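With celastrol against DMSO, the count of sterol and fatty acid genes past the threshold was 0 in all 34 alternative settings at each time and in all 33 run for the average. Between DMSO times it became 1, in each case Idh1: for 1 day minus 6 h with array weights (log2 difference 0.38, limma adjusted p = 0.0443), and for 4 days minus 1 day with the stricter filter (0.0484), the mean of probe sets (0.0491), quantile normalization again (0.0472), limma-trend (0.0348), robust eBayes (0.0481), array weights (0.00608) and the residual component (0.0277); leaving out each array in turn gave 0 to 1. Moves of the median change of the 31 genes were set against 0.03. That is the SD between replicates of the array mean over these genes, not the spread of the median itself. The median moved by more for 1 day minus 6 h with quantile normalization again (-0.0034). It also did so for 4 days minus 1 day with median centring (-0.0484). For 4 days minus 6 h it ran from -0.0766 to -0.0329 with an array left out, the latter also a move of more than 0.03.

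Small values changed sign in some settings. Median centring gave Ggps1 -0.0055 at 4 days, and array weights gave Tm7sf2 -0.0238 for 4 days minus 6 h. Without the 2 least typical arrays, Srebf2 and Fasn were at -0.00047 and -0.00020 at 1 day, Scap was at -0.0153 for 1 day minus 6 h, Idi1 at -0.0232 for 4 days minus 1 day, and DMSO Fasn at 0.0122 for 1 day minus 6 h. With 1 array left out, signs also turned for Mvd at 6 h (-0.0840 to 0.0128), Ggps1 at 4 days (-0.0092 to 0.0471), Pmvk on the average (-0.0043 to 0.0424), DMSO Fasn for 1 day minus 6 h (-0.0697 to 0.0122), Idi1 for 4 days minus 1 day (-0.0091 to 0.188) and, for 4 days minus 6 h, Srebf1 (-0.0255 to 0.142), Ebp (-0.0078 to 0.0631) and Tm7sf2 (-0.0329 to 0.0663). The cause was not tested.

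Deviations of celastrol and DMSO samples with the same replicate number and time correlated from -0.243 to 0.415. Samples of unlike numbers were not compared, so these values cannot tell whether the numbers pair the samples. With the replicate block, 0 of the 31 genes passed in any comparison, with medians of 0.02, -0.02 and -0.04 at the 3 times. The 3 or 4 arrays per group limit all comparisons.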
